A study of Homo sapiens with 12 samples.

Results

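Most of the 27 genes described here make cholesterol from acetyl-CoA or regulate its making. The others act in lipid transport, lipid synthesis or isoprenoid steps. All were matched by symbol from a list chosen with earlier results of these data known. All 27 are named in the authors' gene table of 19943 symbols, and 14 of them (51.9%) occurred in at least 1 of the 5 deposited tables of changes after TDP-43 knockdown. Splicing was the most frequent change, listed for 11 of the 27 genes (40.7%). The 3' end-seq polyadenylation table listed 4 (14.8%), the polyadenylation calls from RNA-seq also held 4, and no member was among the cryptic polyadenylation sites. For scale, 27.6% of the 15548 RefSeq protein-coding symbols in the gene table occurred in at least 1 of the tables. By table these shares were 14.4% for splicing, 12.0% for 3' end-seq, 5.22% for RNA-seq polyadenylation and 2.48% for cryptic sites. Splicing was thus the most frequent change over all symbols too. The comparison set of protein-coding symbols was chosen after the data were seen.

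The samples were neurons derived from WA01, an established line of human embryonic stem cells, in which expression of NGN2, a transcription factor that drives neuronal fate, was induced. The control groups, whose genotype label is WT, received a scrambled short hairpin RNA (shControl), and the knockdown groups a hairpin against TDP-43 (shTDP-43), both for 7 days. TDP-43 binds RNA in the nucleus, and neurons lose it there in amyotrophic lateral sclerosis and frontotemporal dementia. Each group had 3 RNA-seq and 3 3' end-seq libraries, and the labels do not say whether replicates were separate cultures, so the p-values below may cover technical spread only.

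The values are the authors' own comparisons, with no value per library, so neither a spread between replicates nor the depth can be given. Gene expression levels were not analysed here, because no label ties the numbered columns of the gene table to samples. The strength of the knockdown, the neuronal markers and the RNA levels of the cholesterol genes are therefore not reported, and every result concerns how transcripts were spliced or ended. Only items the authors called changed are in the tables, with an adjusted p of 0.05 or less for splicing and for both kinds of polyadenylation call. A gene missing from a table is not shown to be unchanged, since its test is not known.

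Cholesterol synthesis starts with the joining of acetyl units to mevalonate, which is turned into isoprenoid building blocks. These are joined to squalene, closed to lanosterol and trimmed to cholesterol. The SREBP proteins, encoded by SREBF1 and SREBF2, switch on most of these genes. SCAP carries them from the endoplasmic reticulum for activation, and the INSIG proteins hold SCAP back when sterols are plentiful. In the brain cholesterol is made locally, because lipoproteins of the blood do not cross into it, and neurons need it for membranes and synapses.

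By step, the listed genes were spread as follows, beside 27.6% of all protein-coding symbols in any table and 14.4% for splicing. The mevalonate and isoprenoid steps had 6 of 8 genes listed, all 6 for splicing: ACAT2, HMGCS1, MVK, MVD, IDI1 and FDPS. PMVK and GGPS1 were in no table. The steps from lanosterol to cholesterol had 4 of 9 genes listed (CYP51A1, MSMO1, NSDHL and SC5D), without TM7SF2, LBR, HSD17B7, EBP and DHCR7. FDFT1, which makes squalene, and SQLE and LSS, which turn it into lanosterol, were in no table, so 0 of these 3 genes were listed. Of the 5 regulators, SCAP and INSIG2 were listed, while SREBF1, SREBF2 and INSIG1 were not. STARD4, a cytosolic sterol carrier, and LPIN1, a phosphatidate phosphatase that SREBP induces, were both listed. These counts describe the tables, and differences between the steps were not tested.

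For 3 genes a 5' splice site used by changed junctions lay within the RefSeq promoter sequences (GRCh38.p14), and those sites are shown because the junctions described below leave from them. Each is read 5' to 3' on the minus strand, with 10 exon and 15 intron bases, and the capitals mark the first bases of the intron.
HMGCS1 (chr5:43313341-43313365): gtcacgcttgGTgagtgtcccgcgc
CYP51A1 (chr7:92134651-92134675): gcctcttcagGTaagttatcttccg
IDI1 (chr10:1048849-1048873): ggctgatcagGTactgtggacgggc
All 3 introns begin with GT. The coordinate printed in the splicing table for this side of a junction was therefore the last base of the exon in these genes.

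Splicing changed in 12 clusters of 11 genes. A cluster is a set of junctions that share splice sites, its adjusted p covers the whole cluster, and a junction's change is the shift in its share of the cluster's reads. A positive change was taken to mean a higher share in the knockdown, since the unannotated STMN2 junction from 79611214 to 79616822, a well-known mark of TDP-43 loss, stood at 44.9 percentage points in the authors' deposited table. The same STMN2 junction was also listed in a cluster labelled as minus strand, at 54.2 points, so a junction could carry both strand labels. The 40.7% of the 27 genes with a listed cluster stand beside 14.4% of all 15548 protein-coding symbols. With an adjusted p of 0.01 or less, 7 of the 27 were listed (25.9% against 7.46%), and with a junction changed by at least 10 points 2 were (7.41% against 5.15%). The number of reads over the junctions is not known for any of these genes, and its part in that difference was not tested.

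The splicing changes were small in most of these genes. The largest junction change per cluster had a median of 4.35 percentage points over the 12 clusters, with a range of 0.9 to 15.4, against 6.4 over all 2994 listed clusters. A change of at least 5 points was seen in 4 of the 12 clusters, compared with 60.7% of all clusters, and of at least 20 points in 0 of the 12, compared with 10.1%. The clusters with a change of at least 5 points were both of MVD and those of NSDHL and LPIN1. Adjusted p had a median of 0.00467 in the 12 clusters and 0.0109 in all.

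**Figure D1:**
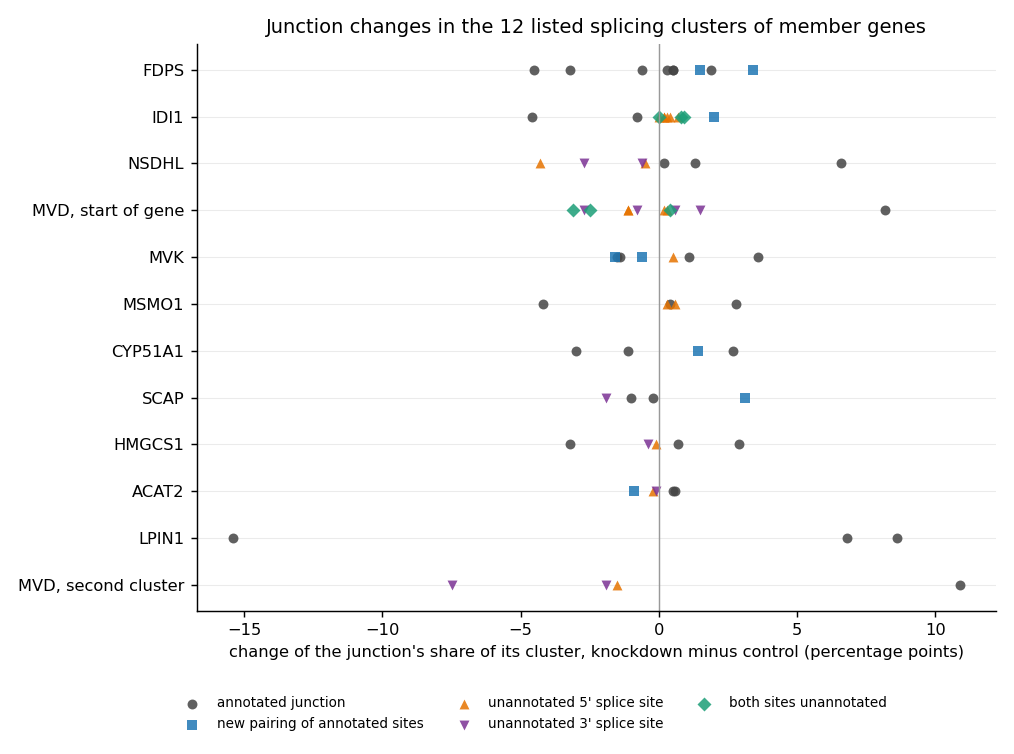
Each point is 1 junction of a listed cluster, placed by the change of its share of that cluster in percentage points (knockdown minus control) on the horizontal axis, with clusters ordered by adjusted p from FDPS at the top to the second MVD cluster at the bottom; colour and shape give the annotation class. LPIN1 spans -15.4 to 8.6 points, while the 5 ACAT2 junctions lie within 0.9 points of 0.

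MVD, the decarboxylase that ends the mevalonate steps, was the member with both a change of transcript end and 2 changed clusters. In 3' end-seq it was called longer, with a change of the usage index of 0.216 (adjusted p = 6.51e-72) in the authors' deposited table. The site that lost use was 88662099 on chromosome 16 (hg38, minus strand), 992 nt after the RefSeq start. The site that gained use was at 88651939, 1 nt past the RefSeq end and 10160 nt downstream of the first. By this index, use thus shifted from a site shortly after the start of MVD to its annotated end. The sequence around the first site was not available, so it was not checked for A-rich stretches.

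The first MVD cluster covered the same place. Its annotated junction, from 88663011 to 88658720, runs from 80 to 4371 nt after the RefSeq start and gained 8.2 points of the cluster (adjusted p = 0.00341 for the cluster) in the authors' deposited table. Of its 12 junctions, 11 use unannotated splice sites, and their shares together fell by 8.3 points. A pair of junctions splice into position 88662167, which lies 68 nt upstream of the polyadenylation site that lost use. They stood at -2.7 and -3.1 points in the authors' deposited table. The junction leaving at 88662024, 75 nt past the polyadenylation site, stood at 0.3 points. The site thus lay in a stretch of 143 nt between an unannotated 3' splice site and an unannotated 5' splice site. In the knockdown the polyadenylation site inside this stretch was used less and the junctions into it had lower shares, while the junction out of it did not fall. The assays used separate libraries, and no test was made across them.

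**Figure D2:**
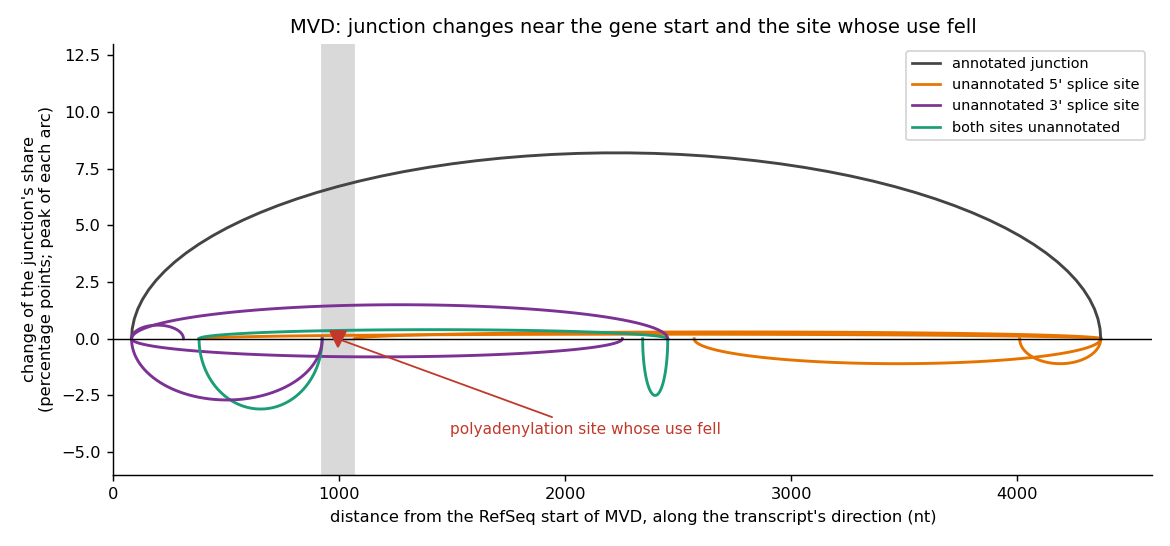
Arcs join the ends of each junction of the first MVD cluster, with the distance from the RefSeq start in nt on the horizontal axis and the peak of each arc at the change of its share in percentage points on the vertical axis. The grey band is the stretch of 143 nt that holds the polyadenylation site whose use fell (triangle, at 992 nt); the arcs that enter it from the left are at -2.7 and -3.1 points, and the annotated arc over it is at 8.2.

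The second MVD cluster lay farther along the gene and had the same form. Its annotated junction from 88657436 to 88656304 gained 10.9 points in the authors' deposited table (adjusted p = 0.049). The 3 junctions with unannotated sites stood at -7.5, -1.9 and -1.5 points in the authors' deposited table, so in both clusters the annotated junction gained and the unannotated ones lost on balance.

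NSDHL, a sterol dehydrogenase that acts in removing methyl groups after lanosterol, resembled MVD. The annotated junction from 152831117 to 152846282 on the X chromosome gained 6.6 points in the authors' deposited table (adjusted p = 0.00216). Junctions into and out of an unannotated exon between 152832971 and 152833064 made up most of the losses. The junction from that exon to 152846282 stood at -4.3 points in the authors' deposited table, and the junctions into it at -2.7 and -0.6. The shares of all unannotated junctions together fell by 8.1 points.

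The losses of unannotated junctions in MVD and NSDHL ran against the more common direction. Among 2658 listed clusters with an unannotated junction or a new pairing of annotated sites, 61.6% gained share in such junctions on balance. Of the 11 member clusters of that kind, 5 gained and 6 lost. Their median was -0.5 points against 1.2 over all clusters, and the 2 values farthest below 0 were those of MVD, at -8.3 and -10.9. The net changes of HMGCS1 (-0.5), ACAT2 (-1.2) and MVK (-1.7) were small, and the largest gains were those of IDI1 at 5.5 and FDPS at 4.9 points.

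LPIN1 had the largest junction change of the group and used annotated sites only. The junction that skips the exon between 11776086 and 11776193 on chromosome 2 fell by 15.4 points in the authors' deposited table (adjusted p = 0.0461). The junctions on either side of this exon, whose ends are 107 nt apart, gained 8.6 and 6.8 points in the authors' deposited table. The exon was thus included more often in the knockdown. Its largest change stood at the 83.7th percentile of all clusters, while its adjusted p ranked 2850 of 2994.

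In the early mevalonate steps the shifts were of a few points. HMGCS1, the synthase of an early mevalonate step, had a lower share of a junction that skips an annotated exon. From the splice site shown above, the junction that skips this exon, from 43313356 to 43298975, fell by 3.2 points in the authors' deposited table (adjusted p = 0.0195). The junction from the same site into the exon at 43307824 gained 2.9, and the junction out of it 0.7, so the flanks of this exon gained unequally. ACAT2, the cytosolic thiolase that joins 2 acetyl-CoA units, had the smallest shift of the group: no junction changed by more than 0.9 points in the authors' deposited table (adjusted p = 0.0358). MVK, the kinase that follows, showed a junction from 109581550 to 109586022 on chromosome 12 that gained 3.6 points in the authors' deposited table (adjusted p = 0.00399). Skipping of the exon before it, from 109579946 to 109586022, stood at -1.5 points.

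Among the 12 splicing clusters, the 2 smallest adjusted p values were those of the isoprenoid enzymes FDPS and IDI1. FDPS makes farnesyl diphosphate, the precursor of squalene and of protein prenyl groups. Its 9 junctions lie near the gene's start on chromosome 1 (adjusted p = 0.00048 in the authors' deposited table). Junctions from 155308965 to 155310043 and to 155310064 fell by 4.5 and 3.2 points. Junctions from the downstream site 155309076 to the same ends gained 3.4 and 1.5 points in the authors' deposited table. For these ends, shares in FDPS thus fell at the upstream 5' splice site and rose at the one 111 nt downstream. A junction from 155309965 to 155310043 also gained 1.9 points. IDI1 isomerises the isoprenoid unit. Its annotated junction from 1043999 to 1043393 on chromosome 10 fell by 4.6 points in the authors' deposited table (adjusted p = 0.00152). The junction from the splice site shown above that skips the exon between 1044171 and 1043999 gained 2.0 points in the authors' deposited table, and the junction from that site into this exon stood at -0.8.

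Among the enzymes after lanosterol, CYP51A1 and MSMO1 also changed in splicing. CYP51A1 removes the first methyl group of lanosterol. Its junction from the splice site shown above, 92134666, to 92131872 gained 2.7 points in the authors' deposited table (adjusted p = 0.00532). The annotated junction from 92131774 to 92129056 on chromosome 7 fell by 3.0 points. From another 5' splice site, 92134173, the junction into the exon between 92131872 and 92131774 stood at -1.1 points. The junction from 92134173 that skips this exon gained 1.4. MSMO1, the next methyl sterol oxidase, had a skipping junction from 165327764 to 165337789 on chromosome 4 that gained 2.8 points in the authors' deposited table (adjusted p = 0.00402). The junction leaving the skipped exon at 165333625 fell by 4.2, while the junction into it stood at 0.4 points, so the flanks of this exon did not move together.

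SCAP was the regulator with a listed cluster. A junction from 47418134 to 47415180 on chromosome 3 pairs annotated sites in a way that is not annotated. It gained 3.1 points in the authors' deposited table (adjusted p = 0.0117), and the junctions on the flanks of the skipped segment stood between -0.2 and -1.9 points.

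In 3' end-seq all 4 listed members were called longer in the knockdown, next to 84.7% of all 2220 listed genes. This assay (QuantSeq REV) reads the last bases of transcripts from the poly(A) tail. SC5D, the desaturase late in the pathway, moved from 121308630 to 121313404 on chromosome 11, a distance of 4774 nt, with a change of 0.206 in the authors' deposited table (adjusted p = 1.47e-211). MSMO1 moved 88 nt, from 165343072 to 165343160, with a change of 0.203 in the authors' deposited table (adjusted p = 5.34e-99). ACAT2 moved 156 nt, from 159778894 to 159779050 on chromosome 6, with a change of 0.163 in the authors' deposited table (adjusted p = 2.54e-47). The falling site lay 92 nt before the RefSeq end in MSMO1, 218 nt in ACAT2, 4780 nt in SC5D and 10159 nt in MVD. The share of the 27 genes that was listed, 14.8%, is near the 12.0% of all protein-coding symbols.

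The site that gained use was in each case at the annotated end of the gene. It lay 4 nt before the RefSeq end in MSMO1, 6 nt before it in SC5D, 62 nt before it in ACAT2 and 1 nt past it in MVD. Of 1634 RefSeq protein-coding genes called longer, 72.7% had their rising site within 100 nt of the RefSeq end. A gain at the annotated end was thus common in the table and not particular to these genes. The changes were of middling size: their median was 0.204 against 0.212 over all 2220 genes. ACAT2 lies over TCP1 on the opposite strand. TCP1, no cholesterol gene, was itself called longer by 0.220 in the authors' deposited table, and its falling site at 159778954 lies between both ACAT2 sites. The RNA-seq kit was stranded, and each listed polyadenylation site carries a strand label. The sources used here do not give how reads were assigned to the 2 strands in processing. In splicing, the STMN2 junction named above carried both strand labels. The same limit holds for the other listed members that overlap a RefSeq gene, which are IDI1 (WDR37 and IDI2-AS1), MVK (MMAB), FDPS (RUSC1-AS1), CYP51A1 (CYP51A1-AS1), STARD4 (STARD4-AS1), SCAP and LPIN1.

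**Figure D3:**
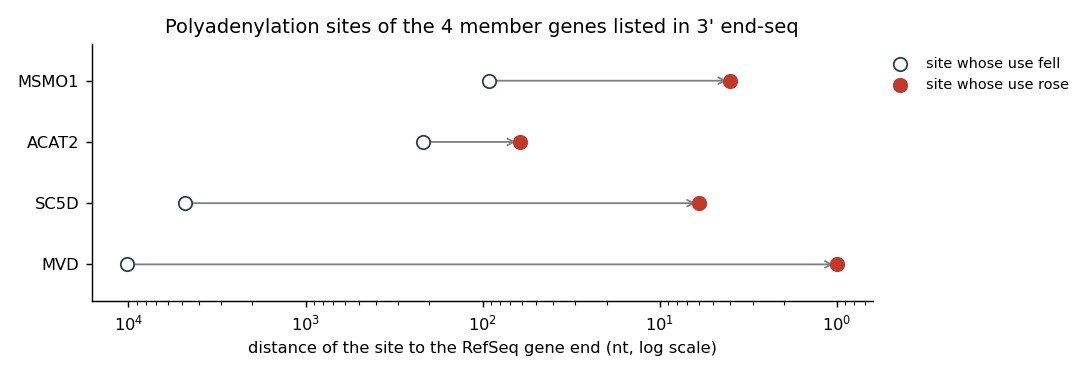
For each of the 4 member genes listed in 3' end-seq, an open circle marks the site whose use fell and a filled circle the site whose use rose, by distance to the RefSeq gene end in nt on a log scale that runs towards the end of the gene. The rising sites lie 1 to 62 nt from the end, and the falling sites 92 to 10159 nt from it.

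From RNA-seq, MVK, SC5D, INSIG2 and STARD4 were called distal. MVK had by far the largest change of the 4, at 1.68 in the authors' deposited table (adjusted p = 5.29e-17), at the 92.0th percentile of the 841 listed genes. SC5D stood at 0.456 (adjusted p = 2.00e-05) in the authors' deposited table. INSIG2, which holds SCAP in the endoplasmic reticulum, stood at 0.392 (adjusted p = 1.75e-05) and STARD4 at 0.316 (adjusted p = 0.0328) in the authors' deposited table. The last 3 were small among the listed sizes, at percentiles of 22.9, 16.9 and 10.2, and the median over all genes was 0.758. Of all 841 listed genes 95.0% were distal, so 4 of 4 reads as the common direction of the table. The subtracted group is not stated there, and distal is taken as more distal use in the knockdown. The scale of this index is not stated and 268 genes exceed 1, so its values are not set against those of 3' end-seq. The listed share, 14.8%, compares with 5.22% of all protein-coding symbols, but with a change of at least 0.5 only MVK is left.

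SC5D was the only member in both polyadenylation tables, longer in the one and distal in the other. MVD, MSMO1 and ACAT2 were in the 3' end-seq and the splicing tables, and MVK in the RNA-seq polyadenylation and the splicing tables. In all, 5 of the 27 genes (18.5%) were in more than 1 of these kinds of table, next to 5.54% of all protein-coding symbols, and 1.44% of those symbols were in both polyadenylation tables. No member had a cryptic polyadenylation site, which the authors listed for 2.48% of protein-coding symbols.

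**Figure D4:**
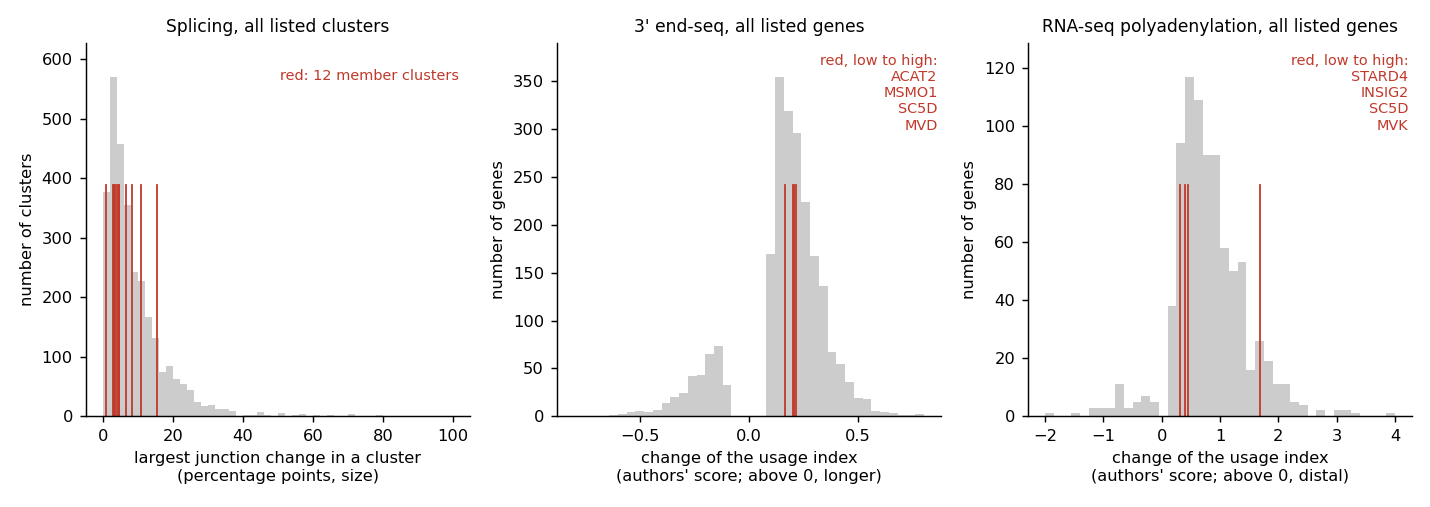
Grey bars count all listed clusters by their largest junction change in percentage points (left), all genes listed in 3' end-seq by the change of the usage index (middle) and all genes listed from RNA-seq by the change of its index (right); red lines mark the members. The members lie within the bulk of each distribution, with MVK at 1.68 as the one far to the right in RNA-seq.

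Outside the 27 genes, 66 further genes of sterol and fatty acid metabolism, sterol transport and prenylation were looked up. Of these, 25 (37.9%) were in at least 1 table: 11 in splicing (16.7%), 10 in 3' end-seq (15.2%), 5 in RNA-seq polyadenylation (7.58%) and 3 with a cryptic site (4.55%). Over all protein-coding symbols the same shares were, in this order, 27.6%, 14.4%, 12.0%, 5.22% and 2.48%. The splicing share was thus near the 14.4% of all protein-coding symbols in these 66 genes, and above it in the 27, a difference that was not tested. With a junction changed by at least 10 points, the 27 were nearer to all symbols, at 7.41% against 5.15%. The largest junction change was 28.7 points in the further genes and 15.4 points in the 27. In splicing, the sterol transporter GRAMD1A had the smallest p, with a largest change of 28.7 points in the authors' deposited table (adjusted p = 1.43e-08). ACLY, which makes the acetyl-CoA that feeds both sterols and fatty acids, followed at 10.8 points in the authors' deposited table (adjusted p = 5.59e-05). A cluster of OSBPL1A, an oxysterol-binding protein gene, changed by at most 3.8 points in the authors' deposited table (adjusted p = 0.00941).

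In 3' end-seq, 7 of the 10 further genes were longer and 3 shorter, next to 84.7% longer among all 2220 listed genes. ELOVL6, a fatty acid elongase, was longer by 0.514 in the authors' deposited table (adjusted p = 2.68e-248). In RNA-seq it was distal at 0.146 (adjusted p = 0.0259), among the smallest listed sizes, at a percentile of 0.832. VLDLR, a lipoprotein receptor, was longer by 0.251 in the authors' deposited table (adjusted p = 9.92e-71). Its 3'UTR also held a cryptic site whose use was 3.49% in control and 28.5% in the knockdown in the authors' deposited table, with 1 value per group. ACSL3, an acyl-CoA synthetase, was longer by 0.135, and TMEM97, a sterol-regulated membrane protein, was shorter by -0.317 in the authors' deposited table (adjusted p = 4.04e-100 for TMEM97). From RNA-seq all 5 were distal, next to 95.0% of all 841 listed genes. NR1H2, the oxysterol-sensing liver X receptor beta, led at 1.90, followed by SCD5, a stearoyl-CoA desaturase, at 1.39 in the authors' deposited table. LRP8, a receptor of the same family as VLDLR, stood at 0.456 there. The cryptic sites of SPRING1, an SREBP pathway regulator, and ERLIN2, which acts in sterol-dependent protein turnover, had a knockdown use of 17.3% and 18.4% and a control use of 5.68% and 4.71% in the authors' deposited table.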

How the data were processed

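Values came from the deposited tables of RNA-seq and 3' end-seq from 12 libraries (4 groups of 3). Per the labels' protocols, a stranded kit for low-input total RNA gave the RNA-seq libraries, and QuantSeq REV the 3' end-seq libraries. Tools named in the submitters' processing notes are STAR, Salmon, DESeq2, fastp and SAMtools, and the build is hg38; no roles are given, and splicing was called with leafcutter, per the file names. The adjusted p-values were deposited by the authors. The changes of usage index and of intron share are scores the authors deposited, and cryptic site use is a deposited fraction per group, printed as a percent. In the gene table, 6 columns of per-sample values are tied to no sample by name and were not used, so the planned expression comparison was not run. No column was assigned by its level of TARDBP.

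Members were matched by symbol, and listed shares were set beside those of the RefSeq protein-coding symbols (GRCh38.p14) in the gene table. Depth is unknown and no test was added. The members and lists were chosen with earlier results of these data known. Every listed member is named, and of the 66 further genes up to 4 per table with the smallest p, or the highest knockdown use. A further gene that meets this rule is not reported here. Counting functions were tested on simulated data with known answers. Python 3.11.15, pandas 2.3.3, numpy 2.4.6 and matplotlib 3.10.9 were used.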

Additional observations from a re-analysis of the deposited data

How the results depend on the processing

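The 3' end-seq count of 4 members became 3 with a change of at least 0.2 in size (11.1% against 6.30% of protein-coding symbols). It was 4 with adjusted p of 0.01 or less (14.8% against 11.7%). The RNA-seq polyadenylation count of 4 became 3 at that p (11.1% against 3.76%). With a change of at least 0.5 in size, the RNA-seq polyadenylation table listed 1 member (MVK) in place of 4 (3.70% against 3.75%). With adjusted p of 0.01 or less, 7 members had a changed splicing cluster in place of 11 (25.9%, against 7.46% of protein-coding symbols). With an intron changed by at least 0.1 (10 points), 2 did, MVD and LPIN1 (7.41% against 5.15%). Stricter settings list fewer genes by construction. Matching through RefSeq synonyms found no further symbol, and a lower ceiling on control use cannot add to 0 cryptic sites, so neither bears on stability. No paired analysis was possible because the tables of changes hold no value per library and the per-sample columns of the gene table are tied to no sample, and for the same reason no replicate could be left out. The alternatives planned for expression were not run. The protein-coding comparison set was chosen after seeing the data.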
